A study of Mus musculus with 16 samples.

Results

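The genes described here code in the nucleus for subunits of the mitochondrial respiratory chain and of ATP synthase. They were taken from a table of normalised read counts in mouse liver by their symbols, which begin with Nduf followed by a, b, c, s or v and a number (complex I), are Sdha, Sdhb, Sdhc or Sdhd (complex II), begin with Uqcr (complex III), begin with Cox4 to Cox8 (complex IV), or begin with Atp5 (complex V, ATP synthase), with pseudogene symbols left out. Such a symbol was carried by 85 of 24082 Ensembl genes. Of these, 77 reached a normalised count of at least 10 in at least 4 of the 16 libraries, as did 12535 genes in all. They comprise 36 genes of complex I, 4 of complex II, 8 of complex III, 12 of complex IV and 17 of complex V, and lie on 19 chromosomes, 3 of them on X.

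Each library held liver RNA from one female C57BL6/J mouse, 9 to 11 weeks old, kept for 25 days on liquid diet. Pair control mice were pair-fed without ethanol and with vehicle, Pair IMC mice were pair-fed with iodomethylcholine (IMC), EtOH control mice were fed ethanol up to 6% vol/vol with vehicle, and EtOH IMC mice received both, with 4 libraries in each group. IMC, given at 0.06% wt/wt, blocks the bacterial enzyme that splits choline into trimethylamine, so that its named target lies in gut bacteria and not in the liver. The question was how blocking this step alters the liver's response to ethanol. Food intake and body weight were not analysed here. The paper reports that both measures dropped, unexpectedly, where the inhibitor was combined with ethanol. A figure legend of the paper also marks a body weight difference between pair-fed mice with and without IMC. The legend does not state its direction. In every contrast with EtOH IMC, an effect of the drop cannot be told apart from the treatments. The same holds for the marked weight difference in every contrast with Pair IMC. It also holds for any further difference in intake or weight between groups.

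Electrons from NADH enter the chain at complex I, and electrons from succinate enter at complex II, which is also an enzyme of the citric acid cycle. Both pass them by coenzyme Q to complex III, and cytochrome c carries them on to complex IV, where oxygen is reduced. Complexes I, III and IV pump protons across the inner membrane, and ATP synthase lets them flow back to make ATP. Complex II is made of nuclear-coded subunits alone, whereas the other complexes join nuclear-coded subunits to a few coded in mitochondrial DNA. The liver depends on this chain to oxidise fatty acids and to renew the NAD+ that alcohol and acetaldehyde dehydrogenases use up.

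The libraries held between 9632659 and 12601199 reads on genes, and the member genes took between 0.998% and 1.26% of them. Their median was 18284 reads per member over all libraries, so that counting error was small for most. The median SD within groups was 0.144 on the log2 scale for the 77 members and 0.201 for all genes tested. The transcripts are short, with a median length of 865 bases against 3005.5 for all genes tested. The 13 subunit genes of the mitochondrial genome were each listed at 0 in all libraries, so nothing can be said of them here. Library 11 of EtOH IMC carried RNA of skeletal muscle, with summed muscle markers of 1906 against at most 16.5 in the other 3 groups, and the counts of called members in contrasts with EtOH IMC are also given without it, as are some values of single genes. The 8 hepatocyte markers summed to between 977432 and 1630696 normalised counts in every library. The numbers 1 to 8 belong to libraries of EtOH control or Pair IMC, and 9 to 16 to EtOH IMC or Pair control. Each comparison of 2 groups therefore runs between the lower and the higher library numbers. If those numbers stand for an order of handling, it cannot be told apart from treatment, save in the IMC effect averaged over both diets, where it cancels.

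Of the 8 genes below the filter, 6 belong to complex IV: Cox7b2 and Cox8c were listed at 0, Cox8b reached 3.63, Cox4i2 2.02, Cox6b2 13.8, and Cox6a2 22.7 in library 11 alone and 0 in the other libraries of EtOH IMC. These are isoforms known from muscle, testis or lung. The others were Ndufa4l2, at 4.56 to 15.1, and an Ensembl gene listed as Ndufa13 which GENCODE names Yjefn3, at no more than 6.41. Just inside the filter were Cox7a1, the heart and muscle form of subunit VIIa, with 12.9 to 27.4, and Atp5s with 50.6 to 85.9. Some members had more than 1 symbol in the table, 7 in all. GENCODE names Atp5sl as Dmac2, a factor linked to complex I assembly, and neither it nor Atp5s is a core part of ATP synthase. Ndufa4 is named for complex I but is known as a component of complex IV, and it stays here with complex I by its symbol.

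Before the responses, the levels per kilobase of transcript show how unequal the set is. Atp5b, the catalytic beta subunit of ATP synthase, led with 7666 ± 495 (SD, n = 16) normalised counts per kilobase. Atp5a1, the alpha subunit, followed with 4903 ± 398 and Atp5g3, one of 3 genes for the same membrane subunit c, with 4594 ± 456. Atp5a1 and Atp5g3 lay within their spread of each other. Of the other genes for subunit c, Atp5g2 stood at 805 ± 85.3 and Atp5g1 at 304 ± 39.7. The Atp5g1 value was divided by a principal transcript of 4715 bases, against 731 for Atp5g2 and 723 for Atp5g3. Its place beside Atp5g2 therefore depends on the transcript chosen. Among the forms of subunit VIIa, Cox7a2 stood at 1850 ± 237, Cox7a2l, a factor that joins complexes III and IV into supercomplexes, at 889 ± 99.9, and Cox7a1 at 54.8 ± 9.63. Median levels were 796 for complex I, 2002 for complex II, 1588 for complex III, 2021 for complex IV and 2037 for complex V. In complex II, Sdhd and Sdha stood at 2373 ± 197 and 2286 ± 258, which their spreads do not separate, above Sdhb at 1717 ± 240 and Sdhc at 618 ± 63. The Sdhc value was divided by 3171 bases, against 1142 for Sdhb, 1231 for Sdhd and 2900 for Sdha. Its place below Sdhb therefore depends on the transcript chosen.

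**Figure D1:**
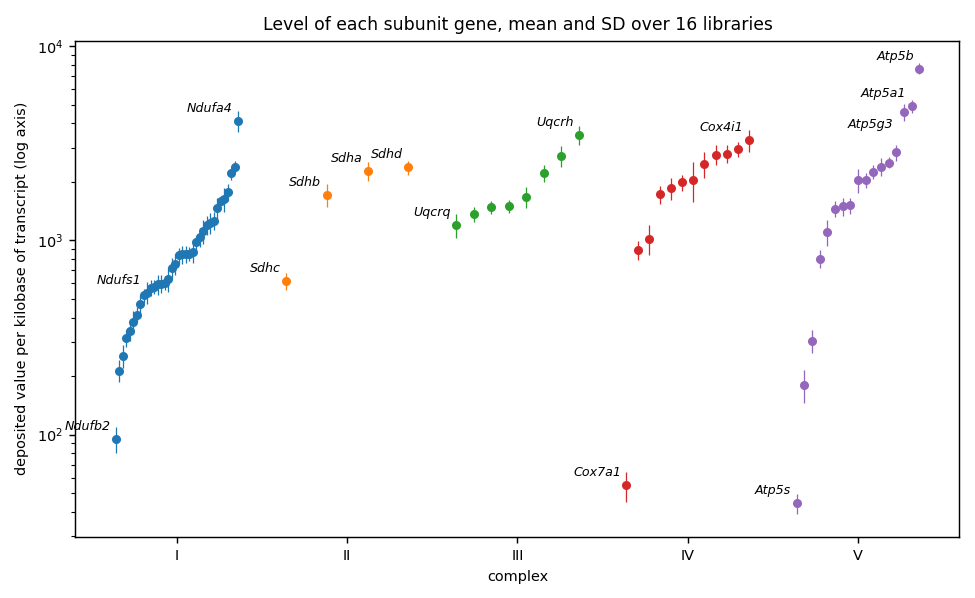
Deposited normalised counts per kilobase of principal transcript (log axis) of the 77 members by complex, with 1 point per gene at its mean and a bar of 1 SD over 16 libraries. Levels run from 44.2 for Atp5s to 7666 for Atp5b, and the median of complex I, at 796, lies below those of the other complexes.

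Promoter sequence was shown for 4 members whose response is described later, since short motifs of factors known to act on respiratory genes were present there. RefSeq windows on GRCm38 were found for 66 of the 77 members, 72 windows in all, and the 250 bases before the start were searched on both strands. The NRF1 motif GCATGCGC was in 11.1% of member windows and in 2.26% of all 32851 windows. The ETS motif CCGGAAG, of the family that includes the respiratory factor GABP, was in 16.7% against 6.91%. The motif TCAAGGTCA of estrogen-related receptors was in 1.39%, the single member being Atp5g3, against 0.387%, and the YY1 motif AAGATGGCG in 2.78%, or 2 of 72 windows, against 0.606%. Of 2 general promoter motifs also searched, the CCAAT box was in 41.7% against 33.8%. The TATA box TATAAA was in fewer member windows, 8.33% against 12.4%. A match describes letters only, and no match says only that these letters are not in the window. For Sdhb (chr4:140961206-140961235, + strand) and Cox6a1 (chr5:115349100-115349129, - strand), 30 bases around an NRF1 motif are printed, for Ndufs3 (chr2:90904730-90904759, - strand) 30 bases around an ETS motif, and for Atp5g3 (chr2:73911327-73911576, - strand) the whole 250 bases. Each runs 5′ to 3′ along the gene's strand with the motif in capitals. Of the 250 bases before the RefSeq start, 68 in Sdhb, 106 in Ndufs3 and 23 in Cox6a1 lie inside the gene as GENCODE draws it. The motif lies 54 to 47 bases before that start in Sdhb and 27 to 21 in Ndufs3. In Sdhb and Ndufs3 the printed bases thus fall inside the GENCODE gene. In Cox6a1 the capitals hold GCATGCGC on both strands, overlapping, and in Atp5g3 they hold TGACCTTGA, the other strand of TCAAGGTCA.
Sdhb: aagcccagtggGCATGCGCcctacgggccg
Ndufs3: cccgcgtccgcCCGGAAGaagagtcactgc
Cox6a1: aggaacgggGCGCATGCGCgctctcgctcc
Atp5g3: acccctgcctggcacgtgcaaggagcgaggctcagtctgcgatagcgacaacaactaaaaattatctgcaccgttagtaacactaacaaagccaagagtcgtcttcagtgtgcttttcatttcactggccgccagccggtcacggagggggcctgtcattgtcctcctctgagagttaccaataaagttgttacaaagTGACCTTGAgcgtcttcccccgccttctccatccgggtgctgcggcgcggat

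With IMC, a minority of the chain's genes fell, with changes between -9.65% (Sdhc) and -20.6% (Ndufb3), and they lay mostly in complexes I and II. Complex I alone holds 36 of the 77 members. Its median averaged effect, -0.02, was smaller than those of complexes II to V, at -0.17, -0.04, -0.03 and -0.07. Averaged over both diets, 10 members fell and 1 rose in limma (Benjamini-Hochberg adjusted p under 0.05 over 12535 genes), where 14% of all genes were called lower and 14.2% higher. The share of members called lower was thus close to that of all genes. The median log2 fold change of the members was -0.07, against 0.00 over all genes tested. The members called lower were Ndufb3, Ndufb10, Ndufs3, Ndufs1, Ndufc2 and Ndufa10 of complex I, Sdhb, Sdha and Sdhc of complex II, and Atp5g3 of complex V, and Ndufa1 of complex I was the one called higher. No subunit of complex III or IV was called in that fit. Without library 11, Uqcrfs1 (-0.16, adjusted p = 0.0341) and Uqcrb (-0.23, adjusted p = 0.0415) of complex III were lower in limma. With all 16 libraries, DESeq2 called 1 of complex III lower. On the same libraries edgeR with upper quartiles called 1 of complex III and 1 of complex IV lower. In bulk liver, fewer cells of a type and less RNA per cell cannot be told apart. Of 8 stellate cell markers 3 fell and none rose in the averaged IMC effect, and their sum was 5051 to 6053 in EtOH control and 3356 to 4378 in EtOH IMC, against 3139 to 4306 in Pair control and 3197 to 4024 in Pair IMC. These sums are of deposited values, whose scale differs between the diets. Of 6 red cell markers 4 were tested, and 2 fell with IMC in ethanol-fed mice (1 without library 11), where the sum of the 6 was 140 to 395 without and 54.4 to 143 with IMC. Of 8 hepatocyte markers Hnf4a rose in each diet (0.71 and 0.62), and no other was called in these fits or in the averaged effect. The part of these markers' cells in the members' result was not tested.

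Complex II had the largest share of its genes called, 3 of 4. Sdhb holds the iron-sulfur clusters that lead electrons from the flavin to coenzyme Q. Its normalised counts were 2165, 2179, 2314 and 1782 in Pair control and 1626, 1639, 1643 and 1901 in Pair IMC. They were 2134, 2325, 2046 and 2445 in EtOH control and 1727, 1957, 1666 and 1824 in EtOH IMC. The ethanol-fed groups did not overlap, and the pair-fed groups overlapped by 1 library of each, the last listed. Sdhb fell by 0.31 on the log2 scale with IMC in pair-fed mice (SE 0.0908, adjusted p = 0.0416) and by 0.32 in ethanol-fed mice (SE 0.0908, adjusted p = 0.0194), and the difference of these effects was -0.01 (95% interval -0.28 to 0.26).

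Sdha, the flavoprotein that oxidises succinate, did not follow Sdhb. Its normalised counts were 6861, 6247, 7223 and 6431 in Pair control and 6356, 6279, 6859 and 7165 in Pair IMC, which overlapped throughout. In EtOH control they were 7104, 7928, 7121 and 7700, all above the 5162, 6192, 5831 and 5626 of EtOH IMC. The log2 fold change was -0.01 under pair-feeding and -0.39 with ethanol (SE 0.0827, adjusted p = 0.00326). The difference between both was -0.38 (95% interval -0.63 to -0.14), which did not pass in limma (adjusted p = 0.122) or in edgeR (adjusted p = 0.129) and did in DESeq2 (adjusted p = 0.0194), where without library 15 of EtOH IMC it did not (adjusted p = 0.0518). Without library 11 the fold change in ethanol-fed mice was -0.43 (adjusted p = 0.00299) and the difference -0.42 (adjusted p = 0.0913) in limma.

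Sdhc and Sdhd anchor complex II in the membrane. Sdhc had 1948, 1902, 1961 and 1783 normalised counts in Pair control, 1702, 1777, 1667 and 1820 in Pair IMC, 2159, 2371, 2066 and 2279 in EtOH control, and 1924, 2130, 1882 and 1960 in EtOH IMC. IMC groups lay lower with overlap in each diet, and among the IMC contrasts Sdhc was called only in the averaged effect, of -0.15 (SE 0.0486, adjusted p = 0.0318). Sdhd had means of 2919 ± 284, 2800 ± 80.3, 3162 ± 138 and 2805 ± 272 (SD, n = 4) in the same order of groups. Its averaged effect was -0.12 (adjusted p = 0.155).

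**Figure D2:**
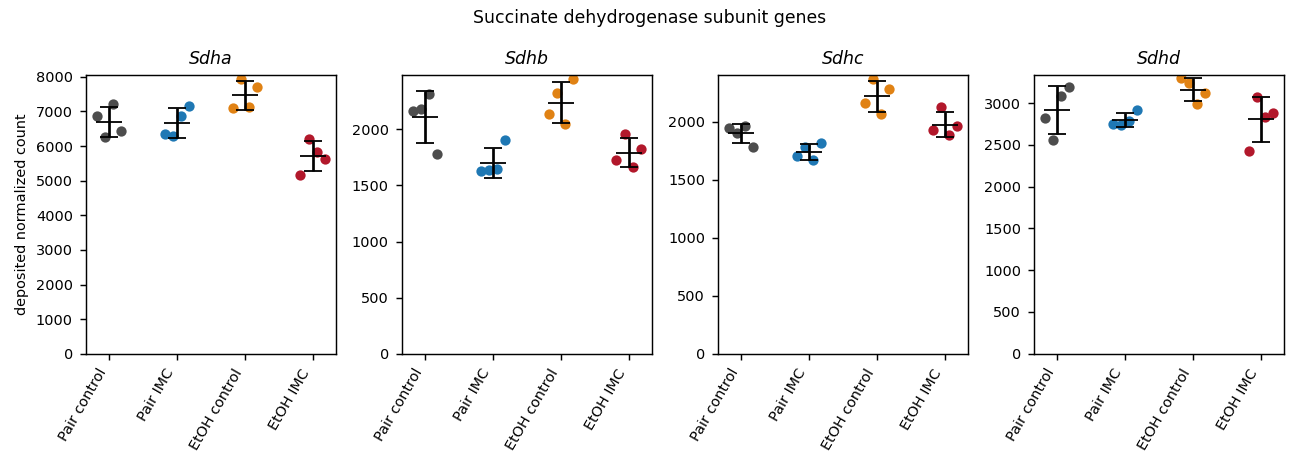
Deposited normalised counts of the 4 complex II genes in each of 16 libraries by group, with the mean and SD of each group of 4. Sdhb lies lower with IMC in both diets, whereas the 4 EtOH IMC libraries of Sdha, at 5162 to 6192, lie below all other libraries of that gene.

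In complex I, 6 of 36 members fell and 1 rose in the averaged effect. Ndufb3, an accessory subunit of the membrane arm, had 547, 546, 500 and 487 normalised counts in Pair control and 419, 412, 420 and 487 in Pair IMC. In EtOH control it had 577, 591, 490 and 592, all above the 394, 479, 383 and 440 of EtOH IMC. It had the lowest averaged fold change of the members, -0.33 (SE 0.065, adjusted p = 0.00112). Ndufb10, another membrane-arm subunit, named after its values were seen, averaged -0.22 (SE 0.0537, adjusted p = 0.00521).

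Ndufs1 and Ndufs3 belong to the peripheral arm of complex I, where Ndufs1 carries iron-sulfur clusters. Ndufs1 had 1436, 1209, 1361 and 1315 normalised counts in Pair control, 1342, 1264, 1280 and 1370 in Pair IMC, 1737, 1730, 1718 and 1706 in EtOH control, and 1333, 1454, 1359 and 1306 in EtOH IMC. EtOH control stood above every library of the other 3 groups, which overlapped. Ndufs1 fell by 0.34 on the log2 scale with IMC in ethanol-fed mice (SE 0.067, adjusted p = 0.00203), and the difference of its IMC effects, -0.32 (95% interval -0.52 to -0.12), was not called in limma (adjusted p = 0.11). In DESeq2, where 1.76% of all genes were called lower and 0.957% higher, that difference had an adjusted p of 0.0223, and 0.0656 without library 15. Without library 11 the fold change with ethanol was -0.37 (adjusted p = 0.00209) and the difference -0.35 (adjusted p = 0.0843) in limma. Ndufs3 had 976, 992, 980 and 924 in Pair control against 791, 817, 801 and 822 in Pair IMC, with no overlap. With ethanol its values were 918, 1007, 835 and 882 without IMC and 777, 920, 759 and 788 with it, which overlapped through library 11. Its averaged fold change was -0.21 (SE 0.0533, adjusted p = 0.00631).

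Ndufa1, a small subunit coded on the X chromosome, was the member that rose. It had 555, 546, 636 and 702 normalised counts in Pair control and 705, 769, 712 and 769 in Pair IMC, and the groups did not overlap. In EtOH control it had 651, 633, 558 and 703 and in EtOH IMC 593, 709, 753 and 921, which overlapped. The averaged effect was 0.25 (SE 0.082, adjusted p = 0.0314), and neither diet alone passed.

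Within pair-fed mice, 5 members fell and none rose, where 5.13% of all genes were called lower and 4.27% higher. They were Ndufc2 (-0.35, adjusted p = 0.0316), Ndufs3 (-0.26, adjusted p = 0.0373), Ndufa5 (-0.32, adjusted p = 0.0454), Sdhb and Atp5g3. Atp5g3 had 3901, 3663, 3771 and 3398 normalised counts in Pair control and 3074, 3098, 3119 and 2795 in Pair IMC, and fell by 0.29 (SE 0.0811, adjusted p = 0.035). The direction was broader than the calls, as 61 of 77 members had a negative fold change, with a median of -0.09 against 0.00 over all genes. The medians by complex were -0.09, -0.09, -0.08, -0.10 and -0.09 for complexes I to V. Groups without overlap were lower for 12 members and higher for 2, against 6.85% and 7.4% of all genes. These calls lay near the threshold. Without any single one of libraries 10, 12 and 14 of Pair control or 2, 4 and 6 of Pair IMC none passed. In those runs 2.457% to 3.901% of all genes were called lower. The median fold change nonetheless stayed between -0.103 and -0.0648 whichever library was omitted. Over all libraries left out the count lay between 0 and 7. The 7 came without library 16 of Pair control, where 4.71% of all genes were called lower. There were 3 without library 1 or 3 of EtOH control, which enter by the shared estimate of spread.

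Other members had averaged IMC effects as follows. In complex III, Uqcrfs1 averaged -0.14 (adjusted p = 0.0525), and passed without library 11, and the core proteins Uqcrc1 and Uqcrc2, at 2499 ± 202 and 2508 ± 276 normalised counts in Pair control (SD, n = 4), averaged -0.10 and -0.07. In complex IV, Cox4i1 and Cox5a averaged 0.11 and -0.12. Cox5b had 1153, 1142, 959 and 665 normalised counts in Pair control and 807, 828, 709 and 684 in Pair IMC, so that its fold change of -0.34 in pair-fed mice, the second lowest of the members, did not pass (adjusted p = 0.139). In complex V, Atp5b averaged -0.01 and Atp5a1 -0.13, and among the genes for subunit c the averaged effects were -0.19 for Atp5g3, which was called, -0.18 for Atp5g1 and 0.10 for Atp5g2, which were not.

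Within ethanol-fed mice, 5 members fell and none rose, where 11.1% of all genes were called lower and 10.5% higher. They were Ndufs1, Sdha, Ndufb3 (-0.41, SE 0.0919, adjusted p = 0.00479), Sdhb and Ndufa10 (-0.25, adjusted p = 0.03). The direction was split, with 43 negative and 34 positive fold changes and a median of -0.02. Complex II stood at a median of -0.25, complex III at -0.08, complex V at -0.06, complex I at 0.00 and complex IV at 0.05. Without library 3 or 7 of EtOH control or 13 of EtOH IMC, 3 members were called, and without library 9 the median was 0.03. Of all genes, 8.751%, 8.145% and 8.839% were called lower without libraries 3, 7 and 13, in that order. Without library 11, 7 members were called lower, Ndufs3 and Atp5a1 joining the others, where 9.55% of all genes were called lower. In the averaged effect 14 were then lower and 1 higher, against 13.68% and 13.04% of all genes. Without library 13 of EtOH IMC 7 were called lower in the averaged effect, where 12.54% of all genes were called lower.

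Between diets, 36 members had a negative IMC effect in both, 9 a positive one in both, and 32 opposite signs, of which 25 were negative in pair-fed and positive in ethanol-fed mice. The difference of the IMC effects was called for no member in limma, against 0.319% of all genes higher and 0.782% lower, and 6 had an unadjusted p under 0.05. Without library 11 none was called in limma either. edgeR also called none and DESeq2 called 2, Sdha and Ndufs1. On the positive side, Atp5d had a difference of 0.50 (95% interval 0.16 to 0.85, adjusted p = 0.148) and Cox6a1 one of 0.48 (0.12 to 0.83, adjusted p = 0.179). Of all 77 members, Sdhb was the one called with IMC in each diet by itself. A median half-width of 0.302 for the 95% intervals shows that modest differences between diets could not be resolved.

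**Figure D3:**
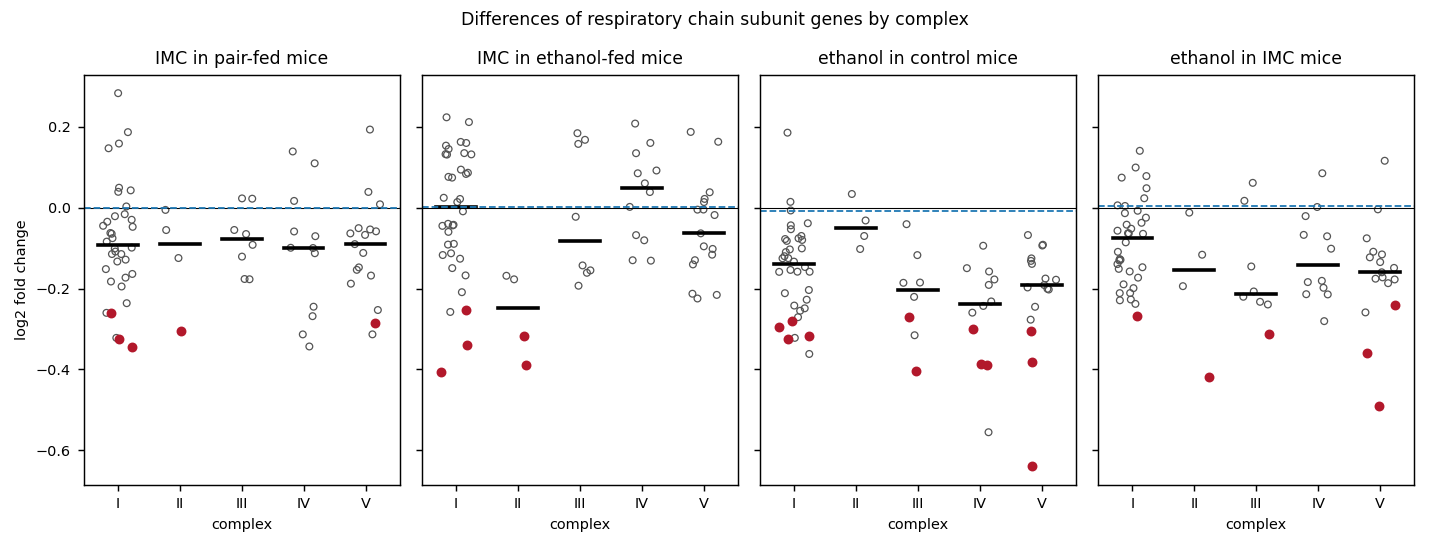
Log2 fold change of each of the 77 members by complex in the 4 contrasts of 2 groups, with 1 point per gene, called members filled in red, a black bar at the median of each complex and a dashed line at the median of all genes tested. With IMC the medians of the complexes lie between -0.25 and 0.05, and with ethanol they lie between -0.24 and -0.05, all below 0.

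Ethanol contrasts depend on how the diets are scaled to each other. The deposited values of ethanol-fed libraries had a median 1.14 times that of pair-fed libraries, and all 16 columns were therefore brought to one scale by median ratios before diets were compared. On this scale 12 members fell with ethanol in control mice and none rose, where 5.52% of all genes were called lower and 6.33% higher. Of 77 fold changes 74 were negative, 96.1% against 50.9% over all genes, with a median of -0.18 against -0.01. Such a shift was not particular to the members. Of 77 cytosolic ribosomal protein genes, a set of short transcripts, 18 fell and none rose, with a median of -0.26. Medians were -0.21 for 23 regulators of mitochondrial gene expression, -0.08 for 78 mitochondrial ribosomal proteins and 0.10 for 14 citric acid cycle enzymes. The complex medians were -0.14, -0.05, -0.20, -0.24 and -0.19 for I to V, so that complex II shifted least. Groups without overlap were lower for 19 members and higher for 1, against 9.06% and 9.94% of all genes.

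On the deposited scale the picture differs: the members had a median of 0.01 where all genes stood at 0.18, with Ndufs1 (0.38) and Sdhc (0.22) called higher and Atp5sl (-0.45) called lower, against 22.3% and 1.59% of all genes. The change of scale moves all genes of a library alike, so the distance between members and all genes is nearly the same by construction, and what is called a fall is a position relative to other transcripts.

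The members called in control mice came from all complexes except II. Atp5sl, counted with complex V by its symbol but not a core part of ATP synthase, led. It had 544, 507, 683 and 492 rescaled normalised counts in Pair control and 318, 453, 286 and 381 in EtOH control, a fold change of -0.64 (SE 0.136, adjusted p = 0.00667). Uqcrfs1, the Rieske iron-sulfur protein of complex III, had 2345, 2468, 2295 and 2292 in Pair control and 1958, 2066, 1768 and 2006 in EtOH control (-0.27, SE 0.074, adjusted p = 0.0252). Cox7c, a small subunit of complex IV, had 1691, 1620, 1869 and 1813 against 1271, 1529, 1166 and 1399 (-0.39, SE 0.102, adjusted p = 0.0211). In each of these genes every ethanol library lay below every pair-fed library. Of complex I, Ndufb9 (-0.29), Ndufs3 (-0.28), Ndufc2 (-0.32) and Ndufs7 (-0.32) fell. Of the others, Uqcr11 (-0.40), Cox6c (-0.30), Cox6a1 (-0.39), Atp5g3 (-0.30) and Atp5d (-0.38) fell.

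Ndufs1 went the other way in value, with a fold change of 0.19 that did not pass (adjusted p = 0.0777). Sdha, with means of 7223 ± 459 in Pair control and 7065 ± 392 in EtOH control (SD, n = 4), and the other genes of complex II were not called. Pair control was itself uneven for some complex IV and V genes. Cox8a had 1749, 1919, 1222 and 975 rescaled counts there and 1050, 1070, 829 and 920 in EtOH control, and its fold change of -0.56 was not called (adjusted p = 0.0532). Libraries 10 and 12 of Pair control were high for Cox8a, as they were for Cox6a1 (1729 and 2001 against 1536 and 1332) and Atp5d (2029 and 2246 against 1607 and 1510).

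**Figure D4:**
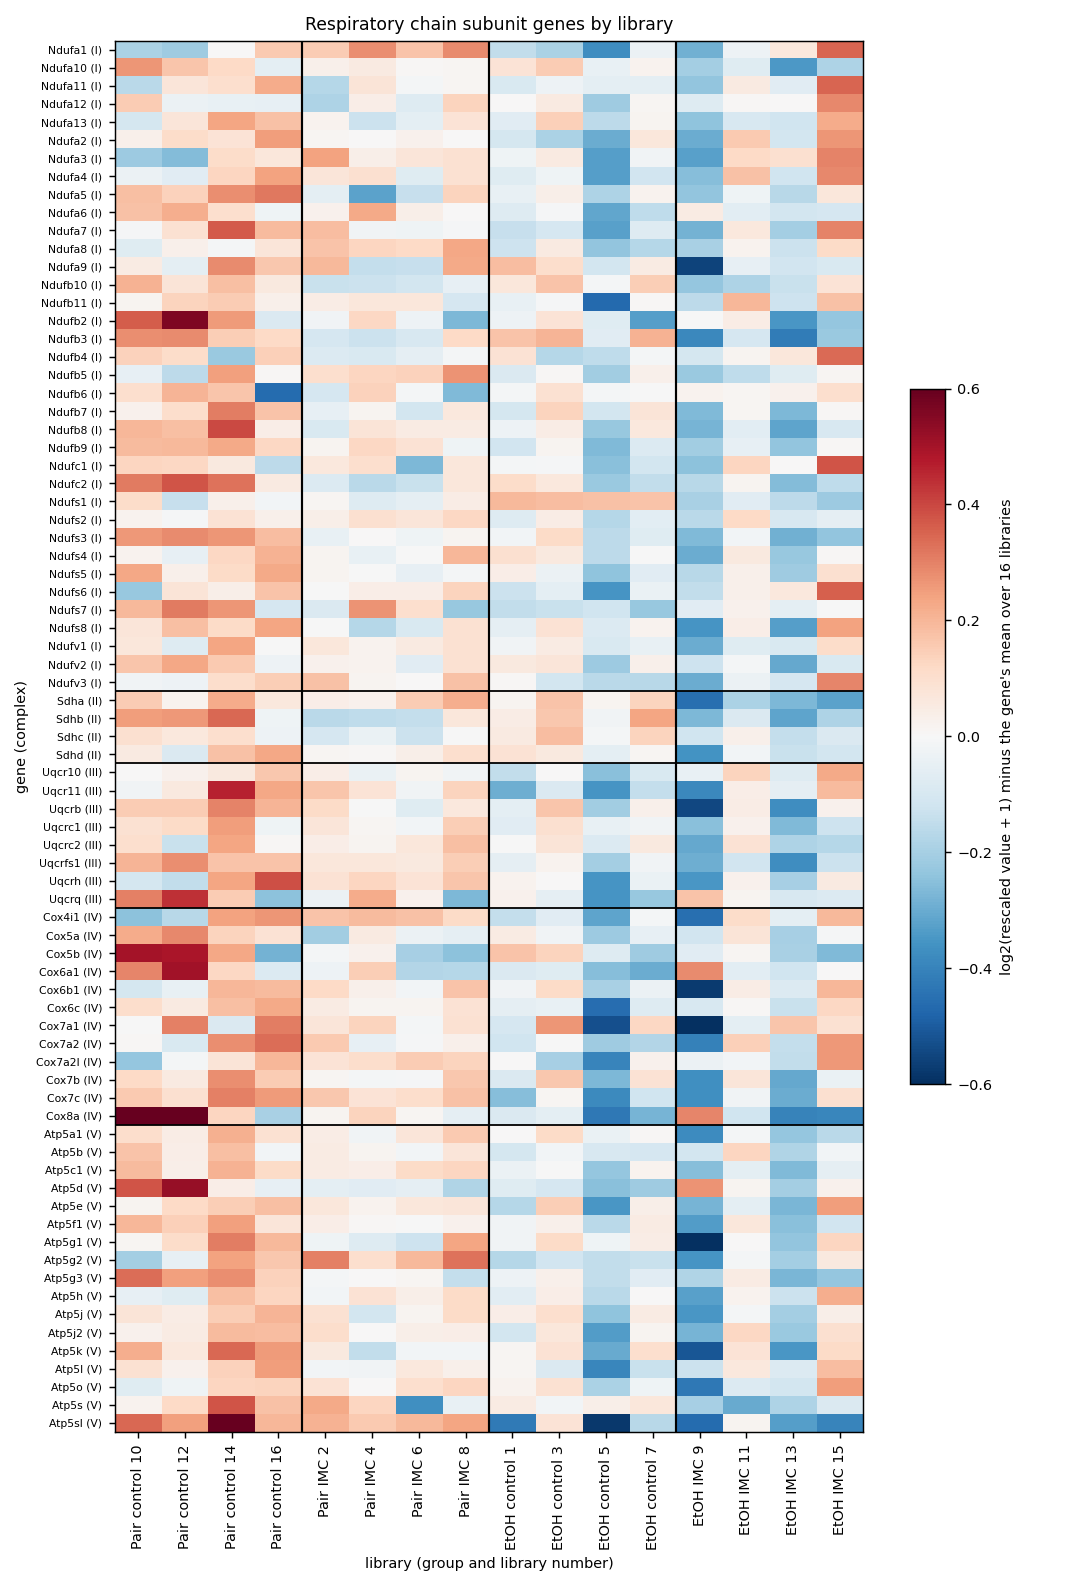
Deviation of each of the 77 members (rows, by complex) from its mean over 16 libraries, as log2(rescaled value + 1), in each library (columns, by group); red is above and blue below the mean, and the colours stop at 0.6. Pair control libraries are mostly red, with median deviations of 0.08 to 0.18, while library 5 of EtOH control and libraries 9 and 13 of EtOH IMC are mostly blue, at -0.21, -0.26 and -0.18.

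Library 5 carried much of the ethanol result in control mice. Its members had a median deviation of -0.21, with 74 of 77 below their mean, whereas libraries 1, 3 and 7 of the same group stood at -0.03, 0.04 and -0.02. Without library 5 a single member, Atp5sl, was called (-0.54, adjusted p = 0.0278), and the median moved to -0.12. Of all genes, 2.64% were then called lower and 3.765% higher. Leaving out other libraries gave up to 15 calls, with 3 without library 14 of Pair control, 6 without library 10 or 12, 7 without library 1 of EtOH control and 4 without library 7. Of all genes, 4.739% were called lower where 15 members were called. The shares were 3.335%, 4.252%, 4.475%, 3.869% and 3.574% without libraries 14, 10, 12, 1 and 7, in that order. Over every library left out, Atp5sl alone of the 12 kept its call. As said above, Atp5sl is Dmac2 in GENCODE and not a core part of ATP synthase. Each of the other calls was lost in at least 1 run. Markers of stellate cells, 8 genes, summed to 3139 to 4306 in Pair control and 5051 to 6053 in EtOH control as deposited, and 8 endothelial markers to 3137 to 3888 and 4374 to 4989. These sums were not rescaled, and the gap between diets includes the 1.14 times higher median of deposited values in ethanol-fed libraries. On the rescaled values 2 stellate and 1 endothelial marker rose and none fell, and the 8 hepatocyte markers had a median fold change of -0.14 with none called. The part of these cell types in the members' result was not tested.

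In IMC mice, 6 members fell with ethanol and none rose, where 8.61% of all genes were called lower and 7.88% higher. Their median was -0.13 against 0.00 over all genes, and 64 of 77 were negative, against 49.4% of all genes. All 4 red cell markers tested fell too (3 without library 11), and of 8 stellate markers 2 rose and 1 fell, and their part in the members' result was not tested. Complex medians were -0.08, -0.16, -0.21, -0.14 and -0.16 for I to V. Groups without overlap were lower for 10 members and higher for 0, against 9.83% and 9.38% of all genes. Sdha led, with 6852, 6776, 7413 and 7750 rescaled counts in Pair IMC and 4868, 5844, 5526 and 5325 in EtOH IMC, well apart, and fell by 0.42 on the log2 scale (SE 0.0827, adjusted p = 0.00277). Uqcrfs1 had 2131, 2134, 2122 and 2257 against 1660, 1877, 1573 and 1863 and fell by 0.31 (SE 0.074, adjusted p = 0.00877).

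The others called there were Atp5sl (-0.49), Atp5g2 (-0.36), Atp5c1, the central stalk subunit of ATP synthase (-0.24), and Ndufb5 (-0.27). Without library 11, whose members stood higher than those of libraries 9 and 13, 12 were called, and without library 9 there were 2. Of all genes, 9.58% were called lower without library 11 and 6.88% without library 9. Without 1 library at a time of libraries 1, 3, 7, 2, 4, 6, 8 and 13 there were 3 or 4. In those runs 5.935% to 8.161% of all genes were called lower. As deposited, the median was 0.06 where all genes stood at 0.19, and Sdha still fell (-0.23, adjusted p = 0.0486) while Ndufa12, Ndufb4 and Uqcr10 were called higher, against 3.52% and 25.4% of all genes. Atp5sl and Uqcrfs1 were called with ethanol both with and without IMC, in comparisons that share no library. Both comparisons nonetheless used a spread and a scaling taken from all 16 libraries, so these calls are not fully independent. The IMC and ethanol comparisons do share libraries, such as EtOH IMC in those of Sdha, and their calls are not independent.

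**Figure D5:**
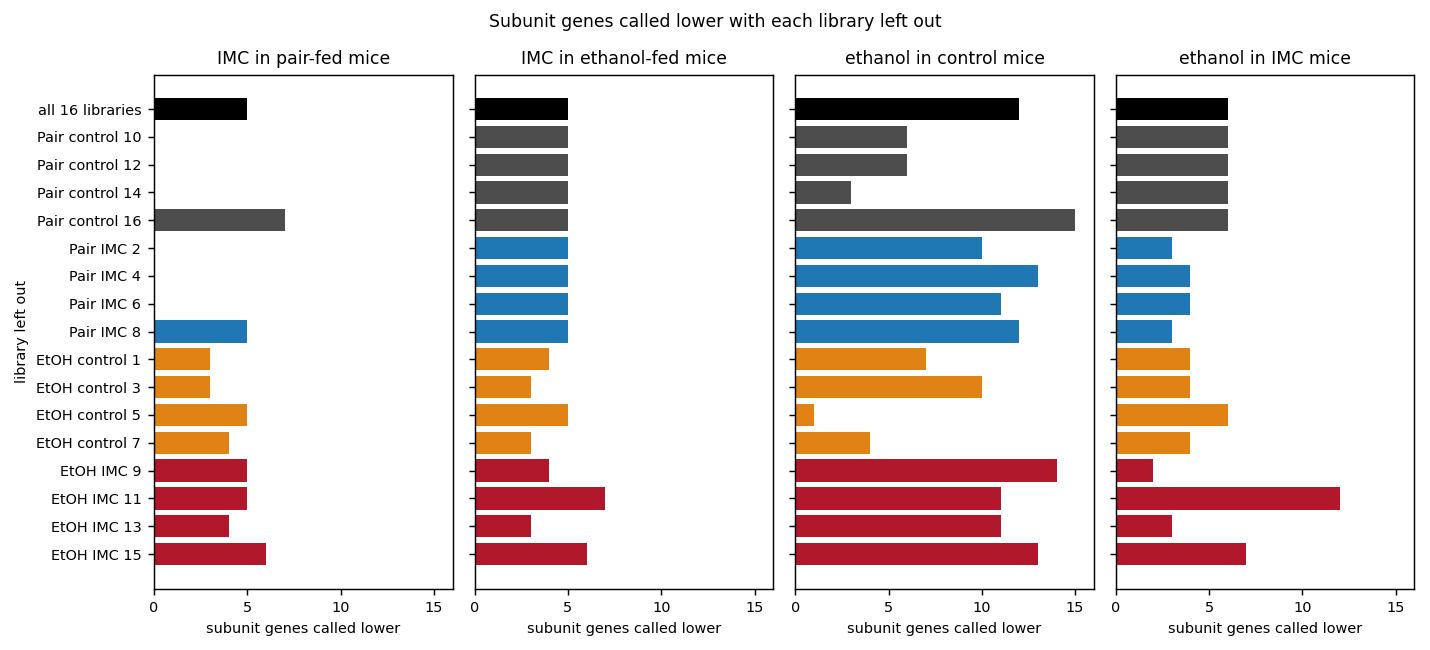
Number of the 77 members called lower (adjusted p under 0.05 in limma) in each contrast of 2 groups with all 16 libraries (black bar) and with each library left out (bars coloured by its group). The count for ethanol in control mice runs from 1 to 15 and that for IMC in pair-fed mice from 0 to 7, around full counts of 12 and 5.

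Fold changes were set beside transcript length. With IMC in pair-fed mice they had a Spearman correlation of 0.00 with length over the 77 members, and 0.17 over 12530 genes. The fold change with IMC in ethanol-fed mice had a Spearman correlation of -0.45 with length over the 77 members, so that longer transcripts lay lower, and -0.06 over all genes. Ethanol in control mice had one of 0.35 over members and 0.13 over all genes. These correlations describe genes that share libraries and carry no test. With trends in length and GC content removed, 11 members fell with IMC in ethanol-fed mice, among them Sdhb (-0.38), Sdha (-0.38) and Ndufs1 (-0.31), where 11.6% of all genes were lower and 11.7% higher. In pair-fed mice Ndufa5 (-0.26) alone then fell while Ndufa1 (0.33) and Ndufa8 (0.22) rose, against 5.47% and 5.11% of all genes, and the median over members moved to -0.03. Ethanol in control mice, against 6.32% of all genes lower and 7.01% higher, kept Atp5sl (-0.66), Uqcrfs1 (-0.22) and Cox7c (-0.24) as lower, and Ndufs1 (0.20) was called higher. Of 77 cytosolic ribosomal protein genes, a set of short transcripts, 59 rose and none fell with IMC in ethanol-fed mice, against 10.5% and 11.1% of all genes, and without library 11 46 rose and 1 fell.

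Genes that assemble, feed or regulate the chain were followed beside its subunits. Of 19 complex I assembly factors, 5 fell in the averaged IMC effect and none rose, against 14% and 14.2% of all genes, led by Tmem261 (-0.41) and Acad9 (-0.37), and 5 fell without library 11. Atp5sl, counted above with complex V, is also in this list and was not among the 5. Of the citric acid cycle enzymes 8 of 14 fell and none rose with IMC in ethanol-fed mice, against 11.1% and 10.5% of all genes, and 7 fell without library 11. Among the 8 were Suclg2 (-0.52) and Suclg1 (-0.35), which make the succinate that complex II oxidises, and Idh2 (-0.50), an NADP-linked enzyme. In pair-fed mice 1 of the 14 fell, Idh2 (-0.35), and the difference between diets was called for none, and for 1 without library 11. Etfdh, which brings electrons of fatty acid oxidation to coenzyme Q, fell by 0.51 with IMC in ethanol-fed mice, and its difference between diets, -0.64, passed (SE 0.119, adjusted p = 0.0141), as it did without library 11 (-0.68, adjusted p = 0.0121).

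Of 13 genes of coenzyme Q synthesis, Coq8a (-0.86), Coq4 (-0.56) and Coq3 (-0.30) fell with IMC in ethanol-fed mice, against 11.1% of all genes. None rose, against 10.5% of all genes, and 3 fell without library 11. Among 23 regulators, Pprc1 (0.60), Polrmt, the mitochondrial RNA polymerase (0.44), and Yy1 (0.24) rose in the averaged IMC effect, while Tfb1m (-0.49) and Ppara, the nuclear receptor of fatty acid oxidation (-0.46), fell, and without library 11 3 rose and 3 fell. Of all genes, 14.2% were called higher and 14% lower in the averaged effect. With ethanol in control mice 6 regulators fell and none rose, against 5.52% and 6.33% of all genes, among them Tfam, which packages mitochondrial DNA (-0.27, adjusted p = 0.0324), and Yy1 (-0.59). Ppargc1a, the coactivator of mitochondrial biogenesis, had fold changes of -0.06 and 0.01 with IMC in the 2 diets and -0.13 with ethanol in control mice, none called. Mitochondrial ribosomal proteins, 78 genes, had 13 higher and 1 lower with IMC in ethanol-fed mice (11 and 2 without library 11), against 10.5% and 11.1% of all genes. With ethanol in control mice 3 were higher and 8 lower, against 6.33% and 5.52%.

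The assembly factors of the other complexes gave few calls. Of 21 for complex IV, 2 rose and none fell in the averaged IMC effect, Cox19 (0.33) and Coa7 (0.20), against 14.2% and 14% of all genes. Without library 11, 1 of these 2 calls was left. With ethanol in control mice 3 rose and 1 fell, against 6.33% and 5.52%, led by Cox15 (0.44), an enzyme of heme A synthesis. Of 6 for complex III, none was called with IMC in either diet. With ethanol in IMC mice Bcs1l (0.32), which inserts the Rieske protein, rose and Ttc19 (-0.51) fell (2 and 1 without library 11), against 7.88% and 8.61% of all genes. None of 4 for complex II was called in any contrast. Of 6 adenine nucleotide and phosphate carriers and channels, Slc25a3, which brings phosphate into the matrix, fell with ethanol in both control (-0.36) and IMC mice (-0.25), and Vdac1 of the outer membrane fell in the averaged IMC effect (-0.21).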

How the data were processed

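Liver RNA of 16 mice was sequenced after a stranded Illumina TruSeq library kit. According to the methods and processing notes, the authors trimmed reads with Trim Galore, checked them with FastQC, aligned them with STAR to mm10 with UCSC transcripts and normalised in edgeR by upper quantile; the counting tool is not given in the sources used here, and the sources differ on single or paired ends. The deposited signal values are read counts per gene divided by 1 size factor per library: 100% of values lay within 0.01 of a whole read, least securely in library 15 of EtOH IMC, whose value of 1 read is 1.01. Columns of per-sample values left unmapped numbered 0.

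Groups followed the labels. Genes at 10 or more in at least 4 libraries (12535) were tested on log2(value + 1) in R 4.3.3 with limma 3.58.1, with a mean per group, a shared spread with trend, and two-sided tests at a threshold of 0.05 after Benjamini-Hochberg adjustment over all genes. "Called" means past it, and averaged fold changes are means over diets. IMC contrasts used deposited values and ethanol contrasts values rescaled by median ratios over all 16 libraries. Fold changes understate changes of low genes. P-values measure the spread between these mice. Positions and lengths are from GENCODE M21 on GRCm38, the length being that of the principal transcript. The members and gene lists were chosen with earlier results of these data known.

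The genes named were the complex II genes, the core subunits and isoform sets, the most significant and most extreme members per complex and contrast, and called genes of the other lists, up to 6 a list. Alternatives were count tests on the recovered reads (edgeR 4.0.16, DESeq2 1.42.0), other pseudocounts, filters and scalings, quantile normalisation, removal of length and GC trends, no mean-variance trend, fits on only the libraries compared, and each library left out. The limma code was tested on simulated data. Counting intervals were not used, since each member tested had at least 14 reads in each library. Paralogous and overlapping genes could share reads in ways that the sources used here do not settle. Human samples were not analysed here.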

Additional observations from a re-analysis of the deposited data

Results flagged for a closer look

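Of 230 groups of 4 libraries examined, 15 held 1 library far from the others by Dixon's test at 95%, and chance alone would mark about 1 in 20 groups. Library 8 of Pair IMC was the one set apart in 6 of them: it was high for Sdhb (1901.1 against 1626 to 1643), Ndufb3 (487.34 against 412 to 420), Cox7b (1798.7 against 1600 to 1627) and Uqcrfs1 (2087.1 against 1963 to 1977), and low for Atp5d (1273.7 against 1381 to 1393) and Atp5g3 (2794.6 against 3074 to 3119). Sdhb, Ndufb3 and Atp5g3 are genes described as lower with IMC, and library 8 lay nearer to the controls than the rest of its group for Sdhb and Ndufb3 and farther from them for Atp5g3.

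In EtOH control, library 5 was low for Cox6c (1688.8 against 2189 to 2246) and Ndufb3 (489.5 against 577 to 592), and library 3 was high for Atp5b (15503 against 14511 to 14648) and Ndufb6 (283.46 against 263 to 265). In EtOH IMC, library 9 was low for Ndufa9 (754.56 against 1018 to 1071) and library 15 high for Ndufb6 (284.71 against 269 to 270). Library 14 of Pair control was low for Ndufb4 (165.21 against 208 to 212), and library 6 of Pair IMC was low for Ndufa4 (2220.9 against 2460 to 2497). Cox6a2, the muscle form of subunit VIa and too low to be tested, stood at 22.686 in library 11 of EtOH IMC, where muscle markers such as Acta1 (729) and Ckm (96.2) were present, and at 0 in the other libraries of the group.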

How the results depend on the processing

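For IMC in pair-fed mice, 5 calls became 3 without a filter on low values, 1 with only the libraries compared, 0 without the mean-variance trend and 3 (2 higher) with length and GC trends removed. Of all genes, 3.07%, 3.06%, 4.32% and 5.47% were called lower in these runs, in that order, and 5.11% higher in the last. For IMC in ethanol-fed mice, 5 became 11 with length and GC trends removed and 8 in DESeq2, and the difference of the IMC effects gave 2 in DESeq2. The shares of all genes called lower were 11.6%, 12.1% and 1.76%, in that order. For ethanol in control mice, 12 became 3 on the deposited scale, 7 with only the libraries compared, 6 without the trend, 4 with length and GC trends removed and 7 in edgeR with upper quartiles. All-gene shares called lower were 1.59%, 5.05%, 4.44%, 6.32% and 4.85%, in that order. Called higher were 22.3% on the deposited scale and 7.01% with length and GC trends removed. The median over members became 0.0147 on the deposited scale and -0.0795 with length and GC trends removed. For ethanol in IMC mice, 6 became 16 with length and GC trends removed, where 8.91% of all genes were called lower. The median there became 0.0615 on the deposited scale. Fits on whole reads without library 15, chosen after seeing the data, gave 17 calls in DESeq2 for IMC averaged over diets and 10 for ethanol in IMC mice. There 14.3% and 7.02% of all genes were called lower, in that order. edgeR with TMM called 13.7% of all genes higher and 14.5% lower in the averaged IMC effect, and 1 and 11 members. The cause of these changes was not tested.

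With 1 library left out at a time, calls ranged from 0 to 7 for IMC in pair-fed mice (median -0.103 to -0.0648), 3 to 7 in ethanol-fed mice (median -0.0858 to 0.0299), 0 to 0 for the difference (median -0.0089 to 0.095), 7 to 16 for the averaged effect (median -0.0817 to -0.0337), 1 to 15 for ethanol in control mice (median -0.197 to -0.117) and 2 to 12 in IMC mice (median -0.173 to -0.0642). Of 39 called results of single members, 13 passed with each library left out, 39 in DESeq2, 37 in edgeR with TMM and 26 with length and GC trends removed, and none changed direction in any alternative run. No paired analysis was possible because the library numbers are unique across groups.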
